A study of Sus scrofa with 220 samples.

Results

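The 8 genes described here, HIF1A, EGLN1, HK1, PFKL, PKM, LDHA, GBE1 and PYGL, encode a hypoxia-responsive transcription factor, its oxygen sensor, enzymes of glycolysis and lactate formation, and enzymes of glycogen synthesis and breakdown. They were chosen by symbol, with earlier results of these data known, and each symbol matched 1 Ensembl pig gene. The 8 genes were among 22840 gene entries in the files, and all 8 were among the 14721 genes that passed the filter on low values (over 1 TPM, a read share corrected for gene length, in at least 3 cells). The identifiers were ENSSSCG00000005096 for HIF1A, ENSSSCG00000010172 for EGLN1, ENSSSCG00000010253 for HK1, ENSSSCG00000028197 for PFKL, ENSSSCG00000001930 for PKM, ENSSSCG00000013366 for LDHA, ENSSSCG00000012000 for GBE1 and ENSSSCG00000005024 for PYGL.

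Glucose that enters a cell is phosphorylated by hexokinase, committed to glycolysis by phosphofructokinase, turned into pyruvate by pyruvate kinase, and pyruvate can be reduced to lactate by lactate dehydrogenase. Glucose can also be stored as glycogen, a branched polymer that branching enzyme helps to build and glycogen phosphorylase breaks down. Under normal oxygen, prolyl hydroxylases mark HIF1A protein for destruction, and under low oxygen the protein persists and acts on many genes, several glycolytic genes among them, so the HIF1A mRNA level measured here is not the level of the active protein. Early mammalian embryos are known to shift from using mainly pyruvate towards greater glucose use around the blastocyst stage.

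The data were Smart-seq2 libraries of 220 single cells from 28 unmanipulated pig embryos of both sexes, flushed from crossbred Large White and Landrace sows after artificial insemination. Cells carried 7 labels: 47 were from morulae (M), 24 from the inner cell mass of early blastocysts (EB ICM), 28 from early blastocyst trophectoderm (EB TE), 25 from late blastocyst epiblast (LB EPI), 36 from late blastocyst hypoblast (LB HYPO), 48 from spherical embryo epiblast (Sph EPI) and 12 from spherical embryo hypoblast (Sph HYPO). Trophectoderm had been removed by immunosurgery from late blastocysts, epiblast and hypoblast of spherical embryos had been separated by hand before dissociation, and trophectoderm cells were labelled at the early blastocyst stage alone. By the paper's sexing, every Sph HYPO cell and most Sph EPI cells were male, and most LB HYPO cells were female. Sex was therefore not separated from stage in hypoblast, and its part in the results was not tested. Embryos were the replicates. Cells were assigned to embryos by the letters in their identifiers, and 1 morula cell could not be assigned. What is called a library pool below was inferred from the prefix of the sample titles, which no label names as a pool.

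Counts of the cells of one embryo and lineage were summed, giving 41 embryo sums: 8 for M, 7 for EB ICM, 10 for EB TE, 4 for LB EPI, 5 for LB HYPO, 4 for Sph EPI and 3 for Sph HYPO, of which 6 held a single cell. In such a sum, fewer cells with a transcript and less RNA per cell cannot be told apart, so shares of cells are given as well. Intervals on these shares treat cells as independent and do not cover the spread between embryos. Levels below are log2(CPM + 1) of an embryo sum, where CPM is the count relative to library size, scaled by the TMM method. Tests were edgeR's quasi-likelihood test over embryo sums with Benjamini-Hochberg adjusted p-values across the 14721 genes, and a gene was called at an adjusted p under 0.05. Fold changes are log2 values ± standard error (SE). For edgeR the SE is approximate, taken as the absolute log2 fold change divided by the square root of the test's F statistic.

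Total counts per cell ran from 1012604 to 5696373 with a median of 2006854. The markers of the lineages mostly followed the labels. The hypoblast markers (5 of 8 measured) summed to 122 to 693 TPM in LB HYPO embryos and 81.5 to 236 TPM in Sph HYPO embryos, against 2.63 to 29.7 TPM in LB EPI and at most 6.09 TPM in Sph EPI, with GATA4 at 0 in both epiblast groups. The same markers summed to 163 to 480 TPM in M, 53.3 to 288 TPM in EB ICM and 28.1 to 322 TPM in EB TE. They thus separated hypoblast from epiblast but not from the earlier groups. The trophectoderm markers (8 of 8 measured) summed to a median of 43211 TPM in EB TE and 865 TPM in EB ICM. They also summed to 17308 to 43067 TPM in Sph HYPO embryos, of which keratin KRT8 had a median of 27036 TPM per cell and GATA3 was over 1 TPM in 9 of 12 cells. DAB2, also on that list, was over 1 TPM in 12 of 12 Sph HYPO cells, with a median of 223 TPM beside 1444 TPM in EB TE. KRT18 had a median of 3237 TPM in Sph HYPO and 12754 TPM in EB TE. GATA2 and TFAP2C were over 1 TPM in 0 of 12 Sph HYPO cells and TFAP2A in 2 of 12. In EB TE they were over 1 TPM in 25, 28 and 27 of the 28 cells. CDX2 was over 1 TPM in 0 of 12 Sph HYPO cells and 1 of 28 EB TE cells. The part of the keratins, GATA3 and DAB2 in the Sph HYPO results was not tested. Of the epiblast and inner cell mass markers, 4 of 8 were measured. They summed to 172 to 270 TPM in LB EPI and 87.7 to 239 TPM in Sph EPI, against at most 5.43 TPM in either hypoblast group, and KLF17 was at 0 in Sph HYPO. One EB TE library, the single cell of embryo E6-ER, stood against its label: KRT8, GATA2, GATA3 and DAB2 had 0 counts in it and KRT18 had 1. Dissociation and stress genes (5 of 9 measured, none at 0 in any group) summed to 754 to 5594 TPM in LB EPI and 2877 to 8369 TPM in LB HYPO, against 171 to 695 TPM in EB ICM, a median of 328 TPM in Sph EPI and 532 to 1841 TPM in Sph HYPO. Their part in the differences between late blastocysts and other stages was not tested.

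Across the whole series the pattern with most calls was a higher level of 4 of the 8 genes, going from morula and inner cell mass to epiblast. When M and EB ICM were set against LB EPI and Sph EPI, PKM, HIF1A, HK1 and LDHA were called and all 4 were higher in epiblast, where 14.3% of all genes tested were called higher. EGLN1, PFKL, GBE1 and PYGL were not called in this comparison. The median log2 difference of the 8 genes was 1.41, beside 0.18 over all genes tested. The 8 genes and the gene lists below were chosen with earlier results of these data known. Their counts and medians beside those of all genes are therefore descriptions and not separate evidence. Of the 8 genes, PKM alone was called from EB ICM to LB EPI, where 1.79% of all genes were called higher in LB EPI. The plot of levels per embryo shows where along the stages each gene was high or low.

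**Figure D1:**
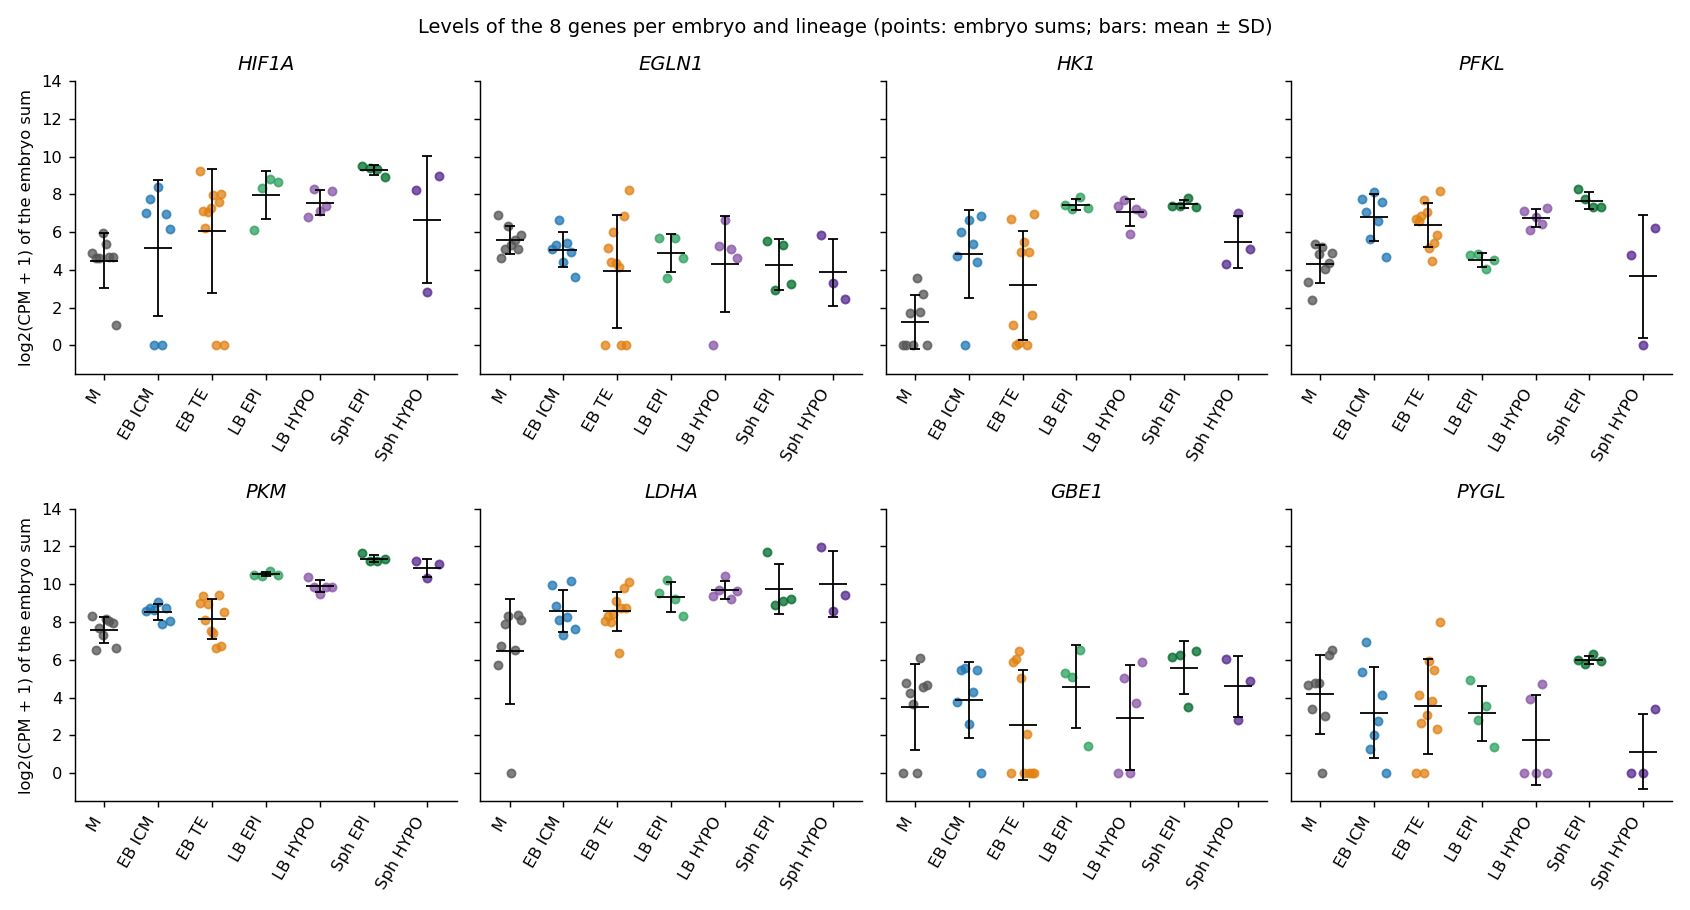
Levels of the 8 genes as log2(CPM + 1) (y axis) for the 7 groups (x axis); each point is the summed counts of one embryo's cells of that lineage, and black bars are the mean ± SD. PKM climbs from a mean of 7.58 in M to 11.36 in Sph EPI with little spread, PFKL is low in M and LB EPI, and LDHA has 1 spherical embryo far above the rest in both lineages.

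HIF1A, the oxygen-regulated subunit of the HIF-1 transcription factor, was lowest in morulae and highest in spherical epiblast. Its level was 1.09 at the lowest, 4.67 at the median and 5.96 at the highest in the 8 morulae. In the 7 inner cell masses it was 0, 6.97 and 8.36, and in the 10 trophectoderm sums 0, 7.21 and 9.25. In LB EPI the 4 embryos had levels of 6.09, 8.35, 8.83 and 8.67. In LB HYPO the 5 embryos had levels of 6.79, 8.31, 7.11, 7.38 and 8.16. The early blastocyst sums fell into very different values, with 0 counts in 2 of 7 inner cell masses (1 of them a sum of 4 cells) and 2 of 10 trophectoderm sums. In Sph EPI embryos C, D, E and F had levels of 9.50, 9.41, 9.36 and 8.90, all above every LB EPI embryo. In Sph HYPO embryos C, E and F had levels of 8.22, 2.83 and 8.95. HIF1A was 2.90 ± 0.72 higher on the log2 scale in epiblast than in M and EB ICM (7.48-fold, edgeR adjusted p = 0.00586), and the call held in all 19 alternatives. The single steps were not called. EB ICM was 2.20 ± 1.08 above M (edgeR adjusted p = 0.228), and LB EPI was 1.37 ± 1.26 above EB ICM (adjusted p = 0.635). Ordered by mean level, the groups ran M, EB ICM, EB TE, Sph HYPO, LB HYPO, LB EPI and Sph EPI. Every pair of neighbours in that order had overlapping ranges except LB EPI and Sph EPI, whose difference (0.96 ± 0.46 on the log2 scale) was not called (adjusted p = 0.381). HIF1A was over 1 TPM in 22 of 47 morula cells (46.8%, exact 95% binomial interval 32.1 to 61.9%) and in 48 of 48 Sph EPI cells (100%, 92.6 to 100%).

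EGLN1 encodes PHD2, the main prolyl hydroxylase that marks HIF1A protein for destruction. Its level ran from 4.64 to 6.91 with a median of 5.45 in morulae, and from 3.65 to 6.63 with a median of 5.08 in inner cell masses. In trophectoderm it ran from 0 to 8.21 with a median of 4.38, and the highest of these sums was the E6-ER cell that stood against its label. LB EPI embryos had levels from 3.55 to 5.69 and LB HYPO embryos from 0 to 6.66. Sph EPI embryos ran from 2.95 to 5.54 and Sph HYPO embryos from 2.46 to 5.86. All neighbours in the order of mean levels overlapped, from Sph HYPO at 3.87 ± 1.77 (SD, n = 3) to M at 5.6 ± 0.74 (SD, n = 8). EGLN1 was called in none of the 10 comparisons by edgeR, and its unadjusted p was under 0.05 in none. In M and EB ICM against epiblast its log2 difference was -0.64 ± 0.51 (adjusted p = 0.449), and limma on log2(TPM + 1) called it lower in epiblast (adjusted p = 0.0199). The share of cells over 1 TPM was 83.0% (39 of 47 cells, 69.2 to 92.4%) in M and 47.9% (23 of 48 cells, 33.3 to 62.8%) in Sph EPI.

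HK1, the hexokinase found in most tissues, was barely counted in morulae and high in LB EPI, LB HYPO and Sph EPI. Its level in the 8 morulae ran from 0 to 3.57 with a median of 0.86, and 4 of the 8 had 0 counts. The 7 inner cell masses ran from 0 to 6.86 with a median of 5.37, and the 10 trophectoderm sums from 0 to 6.96 with a median of 3.29. LB EPI embryos had levels of 7.46, 7.24, 7.86 and 7.29, and LB HYPO embryos 7.38, 7.72, 5.88, 7.21 and 7.02. Sph EPI embryos C, D, E and F had levels of 7.41, 7.39, 7.80 and 7.32, while Sph HYPO embryos C, E and F had 4.34, 7.03 and 5.11. The epiblast embryos of both stages lay in one narrow band, above every morula, inner cell mass and trophectoderm sum. HK1 was 3.95 ± 0.86 higher on the log2 scale in epiblast than in M and EB ICM (15.5-fold, edgeR adjusted p = 0.00197), and the call held in all 19 alternatives. No single step was called: EB ICM was 4.34 ± 1.47 above M (adjusted p = 0.104, and 0.0261 by DESeq2), and LB EPI was 1.81 ± 0.92 above EB ICM (adjusted p = 0.260). In its order of mean levels (M, EB TE, EB ICM, Sph HYPO, LB HYPO, LB EPI, Sph EPI) all neighbours overlapped. HK1 exceeded 1 TPM in 6 of 47 morula cells (12.8%, 4.83 to 25.7%), 11 of 24 EB ICM cells (45.8%, 25.6 to 67.2%), 22 of 25 LB EPI cells (88.0%, 68.8 to 97.5%) and 6 of 12 Sph HYPO cells (50.0%, 21.1 to 78.9%).

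PFKL, the liver-type phosphofructokinase that catalyses the committed step of glycolysis, had low mean levels in M and LB EPI and high ones in EB ICM and Sph EPI. Its level ran from 2.38 to 5.36 with a median of 4.6 in morulae. In inner cell masses it ran from 4.67 to 8.15 with a median of 7.06, and in trophectoderm from 4.49 to 8.15 with a median of 6.64. LB EPI embryos AN, AO, AP and AQ had levels of 4.77, 4.84, 4.03 and 4.54. The 5 LB HYPO embryos had levels of 7.13, 6.12, 6.82, 6.44 and 7.26, so no LB HYPO embryo was as low as any LB EPI embryo. Sph EPI embryos C, D, E and F had levels of 8.29, 7.77, 7.32 and 7.31, all above the 4 LB EPI embryos, and Sph HYPO embryos C, E and F had 4.78, 0 and 6.21. All neighbours in the order of mean levels (Sph HYPO, M, LB EPI, EB TE, LB HYPO, EB ICM, Sph EPI) overlapped. PFKL exceeded 1 TPM in 22 of 47 M cells (46.8%, 32.1 to 61.9%), 24 of 24 EB ICM cells (100%, 85.8 to 100%), 12 of 25 LB EPI cells (48%, 27.8 to 68.7%), 31 of 36 LB HYPO cells (86.1%, 70.5 to 95.3%) and 45 of 48 Sph EPI cells (93.8%, 82.8 to 98.7%).

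From M to EB ICM, PFKL rose by 2.72 ± 0.58 on the log2 scale (6.59-fold, edgeR adjusted p = 0.0147), the 1 of the 8 genes called there, where 1.48% of genes were called higher in EB ICM. Within the first 4 library pools the difference was 1.70 (adjusted p = 0.251) and within the last 4 it was 4.01 (adjusted p = 0.0934). From EB ICM to LB EPI it was 2.59 ± 0.72 lower, which was not called (adjusted p = 0.0694, and 0.000738 by DESeq2). From LB EPI to Sph EPI, PFKL rose by 3.13 ± 0.43 (8.73-fold, adjusted p = 0.0154), again the 1 of 8 genes called, where 0.0611% of genes were called higher in Sph EPI. That call was lost within the first 4 pools (2.52, adjusted p = 0.294), within the last 4 pools (4.2, adjusted p = 0.201), in one model of all 7 groups (adjusted p = 0.270), and without LB EPI embryo AP or AQ or Sph EPI embryo C or D (adjusted p = 0.0646, 0.0649, 0.120 and 0.0931), with log2 differences of 2.90 to 3.21 in the last 5 of these fits.

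Of the 8 genes, PFKL had the largest fitted change with stage in the difference between epiblast and hypoblast. LB EPI was 2.32 ± 0.62 lower than LB HYPO on the log2 scale (edgeR adjusted p = 0.0867), and Sph EPI was 2.68 ± 1.29 higher than Sph HYPO (adjusted p = 0.355). The change in the epiblast minus hypoblast difference between stages was 4.91 ± 1.43 and was not called by edgeR (adjusted p = 0.311), against a median of 0.43 over all genes. DESeq2 and limma on log2(TPM + 1) called this change with all embryos (adjusted p = 0.00567 and 0.0113). EdgeR made no call for it with all embryos, and none without embryo C in both lineages, an alternative chosen after the data had been seen.

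PKM, the pyruvate kinase of most tissues that makes pyruvate and ATP in the last step of glycolysis, had mean levels that went up from M to EB ICM, LB EPI and Sph EPI, and the smallest SD of the 8 genes in both epiblast groups. Its level ran from 6.52 to 8.34 with a median of 7.83 in morulae, from 7.87 to 9.07 with a median of 8.62 in inner cell masses, and from 6.61 to 9.45 with a median of 8.32 in trophectoderm. LB EPI embryos had levels of 10.51, 10.45, 10.68 and 10.48, and LB HYPO embryos 10.38, 9.83, 9.49, 9.87 and 9.84. Sph EPI embryos C, D, E and F had levels of 11.65, 11.23, 11.23 and 11.34, and Sph HYPO embryos C, E and F had 11.21, 10.31 and 11.07. No LB or Sph sum overlapped with any EB ICM, EB TE or M sum. In the order M, EB TE, EB ICM, LB HYPO, LB EPI, Sph HYPO, Sph EPI, neighbours overlapped among the first 3 groups and between LB EPI and Sph HYPO, and the ranges of EB ICM and LB HYPO, of LB HYPO and LB EPI, and of Sph HYPO and Sph EPI did not.

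PKM was 2.82 ± 0.20 higher on the log2 scale in epiblast than in M and EB ICM (7.06-fold, edgeR adjusted p = 1.56e-10), and was called in all 19 alternatives. From EB ICM to LB EPI it rose by 1.99 ± 0.24 (3.97-fold, adjusted p = 0.00024), and PKM was the 1 of 8 genes called in that comparison, where 1.79% of genes were called higher in LB EPI and the median log2 difference over all genes was 0.11. From EB ICM to LB HYPO it rose by 1.33 ± 0.26 (2.52-fold, adjusted p = 0.00905), again as the 1 of 8 genes called, where 1.16% of genes were called higher in LB HYPO. That call was lost within the last 4 library pools (0.92, adjusted p = 0.483). The later steps did not pass, at 0.77 ± 0.15 from LB EPI to Sph EPI (adjusted p = 0.0762) and 1.06 ± 0.29 from LB HYPO to Sph HYPO (adjusted p = 0.288). PKM exceeded 1 TPM in 46 of 47 morula cells and in every cell of the other 6 groups, so its groups differed in the level per cell. The median over cells was 141 TPM in M, 271 TPM in EB ICM, 307 TPM in EB TE, 1111 TPM in LB EPI, 563 TPM in LB HYPO, 1615 TPM in Sph EPI and 1311 TPM in Sph HYPO.

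LDHA, the lactate dehydrogenase subunit favoured in tissues that release lactate, was higher in epiblast by a margin that rested on few embryos. Its level in morulae ran from 0 to 8.36 with a median of 7.30, and the value of 0 was embryo V, a sum of 2 cells. In inner cell masses it ran from 7.31 to 10.18 with a median of 8.25, and in trophectoderm from 6.38 to 10.11 with a median of 8.58. LB EPI embryos had levels of 9.52, 10.25, 9.24 and 8.32, and LB HYPO embryos 9.37, 9.72, 10.45, 9.24 and 9.62. Sph EPI embryos C, D, E and F had levels of 11.73, 8.92, 9.12 and 9.21, and Sph HYPO embryos C, E and F had 11.98, 8.61 and 9.44. Embryo C was the highest of all in both lineages, and the other spherical embryos lay within the range of the late blastocysts. In the order M, EB TE, EB ICM, LB EPI, LB HYPO, Sph EPI, Sph HYPO all neighbours overlapped. LDHA was 1.67 ± 0.59 higher on the log2 scale in epiblast than in M and EB ICM (3.18-fold, edgeR adjusted p = 0.0422). The call was lost without Sph EPI embryo C (1.18, adjusted p = 0.176), without LB EPI embryo AO (1.48, adjusted p = 0.0977) or AP (1.71, adjusted p = 0.0572), within the first 4 library pools (1.53, adjusted p = 0.120), and with sums of at least 2 cells (1.58, adjusted p = 0.0747). No single step was called for LDHA. EB ICM was 1.60 ± 0.76 above M (edgeR adjusted p = 0.212), and LB EPI was 0.55 ± 0.52 above EB ICM (adjusted p = 0.652). From LB EPI to Sph EPI the log2 difference was 0.70 ± 0.62 with embryo C and -0.47 ± 0.40 without it, and neither was called.

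GBE1, the glycogen branching enzyme, varied more within groups than between them. Its level ran from 0 to 6.08 with a median of 4.39 in morulae, from 0 to 5.55 with a median of 4.29 in inner cell masses, and from 0 to 6.48 with a median of 1.04 in trophectoderm, where 5 of 10 sums had 0 counts. LB EPI embryos ran from 1.41 to 6.52 and LB HYPO embryos from 0 to 5.88, with 0 counts in 2 of 5. Sph EPI embryos ran from 3.48 to 6.49 and Sph HYPO embryos from 2.83 to 6.05. The ranges of all neighbours in the order EB TE, LB HYPO, M, EB ICM, LB EPI, Sph HYPO, Sph EPI overlapped. GBE1 was called in none of the 10 comparisons by edgeR, had no unadjusted p under 0.05, and was called by neither DESeq2 nor limma. GBE1 exceeded 1 TPM in 36 of 48 Sph EPI cells (75%, 60.4 to 86.4%) and 12 of 36 LB HYPO cells (33.3%, 18.6 to 51.0%), and the M and EB groups lay between 42.6 and 54.2%. The share was also high in Sph HYPO, where 8 of 12 cells had GBE1 over 1 TPM without PYGL and 1 had both. In LB EPI, 7 of 25 cells had GBE1 without PYGL and 5 had both.

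PYGL, the liver-type glycogen phosphorylase, was most even in spherical epiblast, and was at 0 in the hypoblast sums of 1 to 3 cells but not in the larger ones. Its level ran from 0 to 6.52 with a median of 4.72 in morulae, from 0 to 6.93 with a median of 2.74 in inner cell masses, and from 0 to 7.98 with a median of 3.45 in trophectoderm. The highest trophectoderm value was again the E6-ER cell, and without it the highest was 5.93. LB EPI embryos had levels of 4.92, 2.79, 3.54 and 1.38, and LB HYPO embryos 0, 3.93, 0, 4.73 and 0 (sums of 1, 14, 3, 16 and 2 cells). Sph EPI embryos C, D, E and F had levels of 5.96, 5.80, 6.28 and 5.93, all above every LB EPI embryo, and Sph HYPO embryos C, E and F had 0, 0 and 3.41 (sums of 2, 2 and 8 cells). In the order Sph HYPO, LB HYPO, LB EPI, EB ICM, EB TE, M, Sph EPI all neighbours overlapped. Sph EPI exceeded Sph HYPO by 4.28 ± 1.81 on the log2 scale (edgeR adjusted p = 0.305), against a median of 0.57 over all genes in that comparison. Limma on log2(TPM + 1) called this difference (3.33, adjusted p = 0.0225), and so did edgeR without Sph HYPO embryo F (adjusted p = 0.0171), which left 2 hypoblast embryos with 0 counts, each a sum of 2 cells. From LB EPI to Sph EPI the difference was 2.34 ± 0.89 (adjusted p = 0.359). PYGL exceeded 1 TPM in 34 of 48 Sph EPI cells (70.8%, 55.9 to 83.0%), 5 of 36 LB HYPO cells (13.9%, 4.67 to 29.5%) and 1 of 12 Sph HYPO cells (8.33%, 0.211 to 38.5%). Both GBE1 and PYGL exceeded 1 TPM in 27 of 48 Sph EPI cells.

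**Figure D2:**
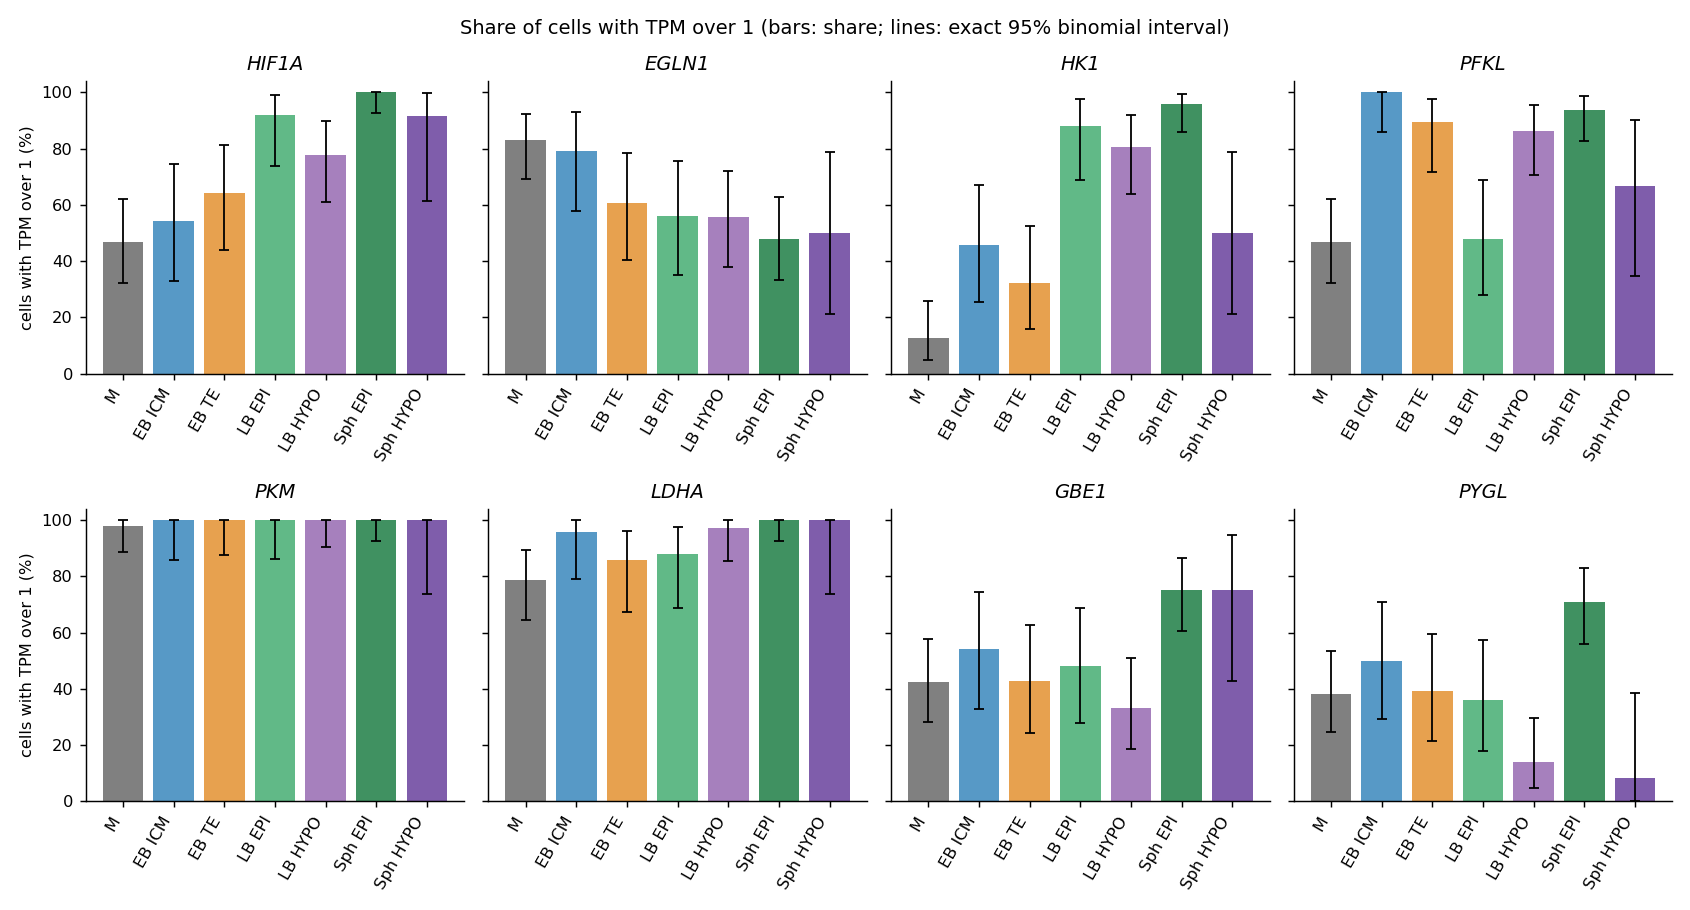
Share of cells with TPM over 1 (y axis, percent) for each of the 8 genes in the 7 groups (x axis); bars are shares and lines are exact 95% binomial intervals, which treat cells as independent and cover counting error alone. PKM is near 100% everywhere, HK1 goes from 12.8% in M to 95.8% in Sph EPI, PFKL dips to 48% in LB EPI, and PYGL falls to 13.9% in LB HYPO and 8.33% in Sph HYPO.

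The comparisons of lineages within a stage held no called member. Between EB ICM and EB TE, edgeR called 0 of the 8 genes, with 0 at an unadjusted p under 0.05, and DESeq2 and limma also called 0, beside 0.754% of all genes called by edgeR. Their log2 differences lay between -0.58 and 0.64, the SEs ran from 0.40 to 1.53, and the levels of the groups overlapped for every gene. Between LB EPI and LB HYPO, edgeR called 0 of 8 (1.92% of all genes), 2 had an unadjusted p under 0.05 (PFKL and PKM), and DESeq2 and limma each called 1, PFKL. Between Sph EPI and Sph HYPO, edgeR called 0 of 8 (1.13% of all genes), 1 had an unadjusted p under 0.05 (PYGL), DESeq2 called 0, and limma called 1, PYGL. Between LB HYPO and Sph HYPO, edgeR called 0 of 8 (0.163% of all genes), 1 had an unadjusted p under 0.05 (PKM), and DESeq2 and limma called 0. For the change in the epiblast minus hypoblast difference with stage, edgeR called 0 of 8 (0.0408% of all genes), 1 had an unadjusted p under 0.05 (PFKL), and DESeq2 and limma each called that 1. A difference that did not pass is not shown to be absent, since only 3 or 4 embryos stood on a side in the spherical groups.

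**Figure D3:**
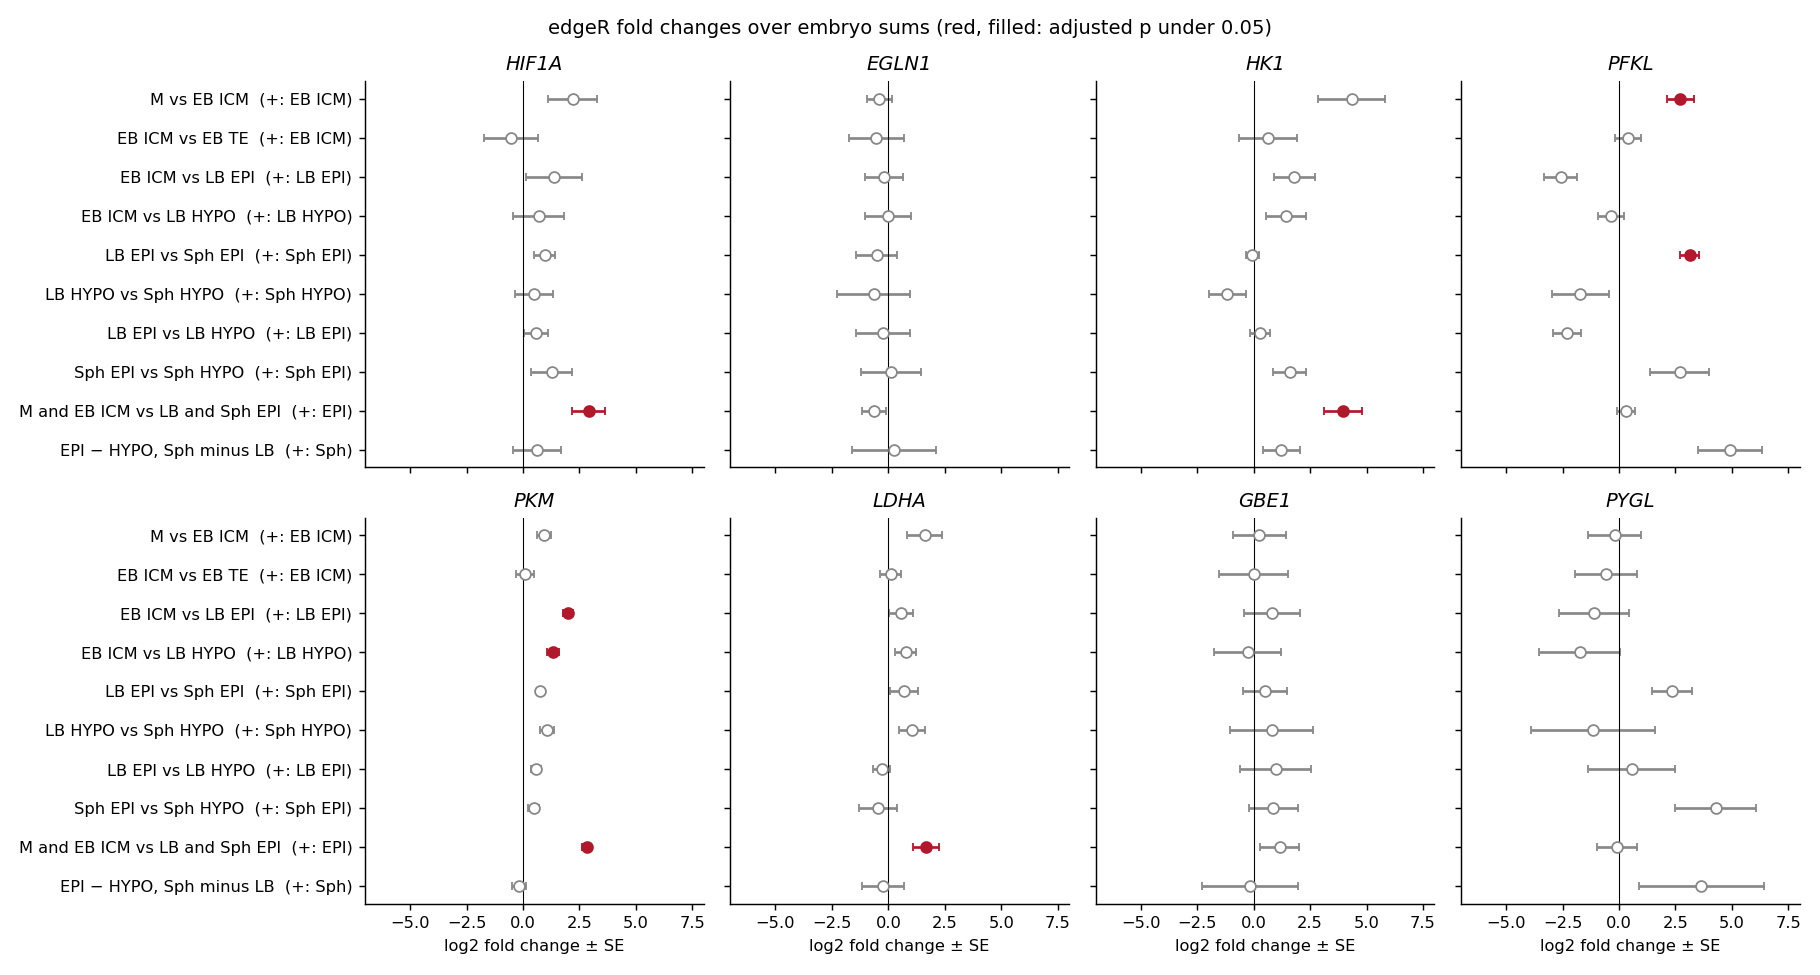
Log2 fold changes ± SE (x axis) of the 8 genes in the 10 comparisons (y axis, with the group in which a positive value is higher); filled red points passed an edgeR adjusted p under 0.05. PKM passes in 3 comparisons, PFKL in 2, and HIF1A, HK1 and LDHA in the comparison of M and EB ICM with epiblast, while EGLN1, GBE1 and PYGL pass in none.

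Per length, the order of the genes changed from morula to epiblast. In morula cells the median was 141 TPM for PKM, 119 TPM for LDHA and 20.4 TPM for EGLN1, and at most 0.674 TPM for the other 5 genes. In Sph EPI cells the median was 1615 TPM for PKM, 578 TPM for LDHA, 326 TPM for HIF1A, 98.2 TPM for PFKL, 93.5 TPM for GBE1, 65.9 TPM for HK1, 21.5 TPM for PYGL and 0.211 TPM for EGLN1. EGLN1 was the third highest of the 8 medians in morula cells and the lowest in Sph EPI cells.

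Several of the 8 genes have relatives that encode the same activity, and their shares of the family's TPM were compared in 38 exact two-sided permutation tests over embryos. No relative of LDHA or PKM was analysed here, so no share is given for them. PYGB and EGLN2 were not analysed here either, so the shares of PYGL and EGLN1 are of the measured relatives alone. The hexokinase family was divided between HK1 and HK2, the inducible form, before the late blastocyst, and was mostly HK1 after it. HK1 made up 24.7% ± 39.8 (SD, n = 8) of the TPM of HK1, HK2 and HK3 in morulae, 53.1% ± 32.3 (n = 7) in EB ICM and 46.7% ± 46.2 (n = 10) in EB TE. It made up 95.4% ± 7.06 (n = 4) in LB EPI, 92.0% ± 7.78 (n = 5) in LB HYPO, 93.9% ± 8.95 (n = 4) in Sph EPI and 97.3% ± 4.62 (n = 3) in Sph HYPO. Every LB and Sph embryo had an HK1 share of at least 80.8%, while the earlier embryos covered the whole range from 0 to 100%. Some early shares rested on few transcripts. The family total per embryo was 3.48 to 38.2 TPM in M, 1.04 to 94.2 TPM in EB ICM and 2.09 to 96.9 TPM in EB TE. It was 77.9 to 109 TPM in LB EPI, 39.2 to 128 TPM in LB HYPO, 73.2 to 106 TPM in Sph EPI and 10.6 to 68.4 TPM in Sph HYPO. The differences from EB ICM to LB EPI (exact permutation p = 0.0303, adjusted p = 0.177) and to LB HYPO (p = 0.0202, adjusted p = 0.177) did not pass. Over 1 TPM, 18 of 47 morula cells had HK2 without HK1 and 3 had HK1 without HK2, whereas 22 of 25 LB EPI cells had HK1 without HK2 and 0 had HK2. In the edgeR fit HK2 was lower in epiblast than in M and EB ICM (-5.03 ± 1.48, adjusted p = 0.0165), a call that held in 15 of 19 alternatives (highest adjusted p = 0.0808). The low counts were those of LB EPI: HK2 had 1639 counts in M, 1920 in EB ICM, 2 in LB EPI and 1329 in Sph EPI, where 14 of 48 cells exceeded 1 TPM beside 21 of 47 morula cells.

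**Figure D4:**
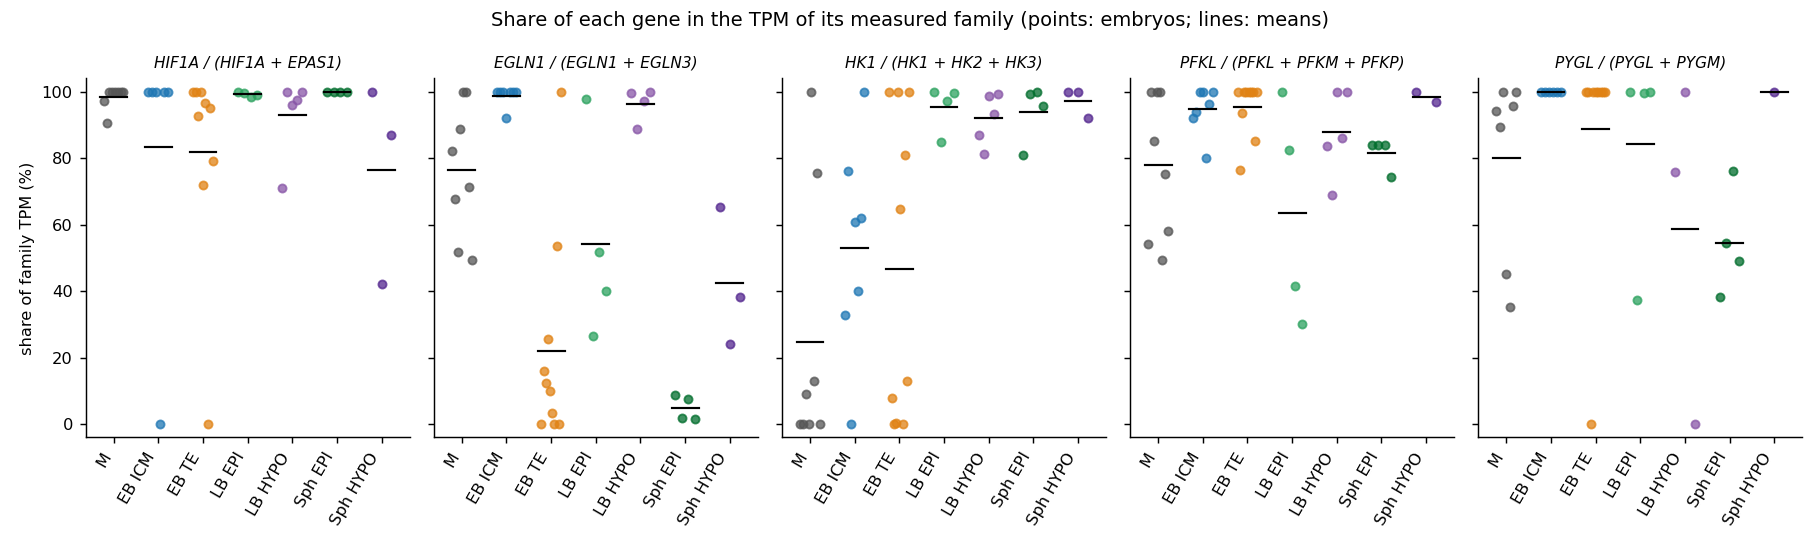
Share of HIF1A, EGLN1, HK1, PFKL and PYGL (y axis, percent) in the mean TPM of the measured members of each family, for the 7 groups (x axis); points are embryos and lines are group means. The EGLN1 share is 98.8% in EB ICM, 22% in EB TE and 4.88% in Sph EPI, and the HK1 share is above 80% in every LB and Sph embryo.

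The share of EGLN1 in the TPM of EGLN1 and EGLN3, the hypoxia-induced prolyl hydroxylase, passed in 1 of its comparisons, the 1 of 38 tests that passed, when the embryos of each lineage were treated as separate samples. It was 98.8% ± 3 (SD, n = 7) in EB ICM and 22% ± 31.9 (n = 10) in EB TE (exact permutation p = 0.000823, adjusted p = 0.0313), and without the E6-ER cell, an alternative chosen after the data had been seen, the adjusted p was 0.00664. With embryos of at least 2 cells the adjusted p was 0.0960. The 7 EB ICM embryos are all among the 10 EB TE embryos, so the 17 values are not separate, and 3 LB and 3 Sph embryos likewise gave cells to both lineages. With the lineages of an embryo as a pair, a replicate block chosen after the data had been seen, the share was higher in EB ICM in 7 of 7 embryos, with a mean difference of 91.5 percentage points. The exact two-sided sign-flip p was 0.0156, the smallest that 7 pairs allow, and it did not pass over the 38 tests (adjusted p = 0.177). The EGLN1 share was 76.4% ± 19.7 (n = 8) in M, 54.1% ± 30.9 (n = 4) in LB EPI, 96.4% ± 5.25 (n = 4) in LB HYPO, 4.88% ± 3.73 (n = 4) in Sph EPI and 42.5% ± 21 (n = 3) in Sph HYPO. The difference between LB EPI and Sph EPI had the smallest p that 4 embryos against 4 allow (exact permutation p = 0.0286, adjusted p = 0.177). EGLN3 carried these shares: its level was 3.76 ± 2.4 (SD, n = 8) in M, with 2 embryos at 0 counts, 0.30 ± 0.66 (SD, n = 7) in EB ICM, 7.20 ± 2.61 (n = 10) in EB TE, 4.65 ± 2.25 (n = 4) in LB EPI, 1.06 ± 1.77 (n = 5) in LB HYPO, 9.12 ± 0.25 (n = 4) in Sph EPI and 4.74 ± 0.79 (n = 3) in Sph HYPO. EGLN3 was called lower in EB ICM than in EB TE (-9.31 ± 1.54, edgeR adjusted p = 0.00388, with 15 counts in all of EB ICM), higher in Sph EPI than in Sph HYPO (4.33 ± 0.52, adjusted p = 0.00353) and higher in epiblast than in M and EB ICM (5.6 ± 0.94, adjusted p = 0.000146). In Sph EPI all 48 cells had EGLN3 over 1 TPM and 23 of them also had EGLN1, and in M 16 of 47 cells had EGLN3 over 1 TPM.

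The other families showed no share that passed. HIF1A made up 100% of the TPM of HIF1A and EPAS1, the HIF-2 subunit, in each of the 4 Sph EPI embryos to 3 digits, and EPAS1 had 2 counts in all of Sph EPI. In Sph HYPO the HIF1A share was 76.4% ± 30.3 (SD, n = 3), and EPAS1 exceeded 1 TPM in 6 of 12 cells. PFKL made up 94.7% ± 7.12 (n = 7) of the TPM of PFKL, PFKM and PFKP in EB ICM, 63.5% ± 33.2 (n = 4) in LB EPI and 81.6% ± 4.85 (n = 4) in Sph EPI. The platelet form PFKP exceeded 1 TPM in 12 of 25 LB EPI cells and 33 of 48 Sph EPI cells, against 1 of 36 LB HYPO cells and 0 of 12 Sph HYPO cells, and 32 Sph EPI cells held both PFKL and PFKP. PYGL made up 100% of the TPM of PYGL and PYGM, the muscle-type phosphorylase, in all 6 EB ICM embryos with any, and 54.5% ± 16 (n = 4) in Sph EPI. The total of PYGL and PYGM was 0.985 to 58.3 TPM in these EB ICM embryos and 58.6 to 89.7 TPM in Sph EPI. PYGM was called higher in Sph EPI than in Sph HYPO (edgeR adjusted p = 0.0224), with 7211 counts in the 4 epiblast embryos and 0 in the 3 hypoblast embryos, which is at least 533-fold higher against a floor of 3 counts over the hypoblast group. That call held in 9 of 19 alternatives. Both PYGL and PYGM exceeded 1 TPM in 24 of 48 Sph EPI cells, and in no other group did more than 1 cell hold both.

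Among 22 glycolysis enzymes, 17 were tested. In M and EB ICM against epiblast 8 were called higher in epiblast and 1 lower, beside 14.3% of all genes tested called higher and 1090 of 14721 lower, with a median log2 difference of 0.99 beside 0.18 over all genes. Besides the members HK1, PKM and LDHA, the enzymes higher in epiblast were GAPDH, the glyceraldehyde-phosphate dehydrogenase (3.12 ± 0.36, adjusted p = 6.78e-07), ENO2 and ENO1, 2 enolases, ALDOC, an aldolase (4.55 ± 1.12, adjusted p = 0.00515), and GPI, the glucose-phosphate isomerase, named after its values had been seen (0.99 ± 0.31, adjusted p = 0.0260). ENO1 rose by 1.14 ± 0.25 (adjusted p = 0.00191), and ENO2 went from 1 count in all of M and EB ICM to 497 in LB EPI and 1008 in Sph EPI (adjusted p = 0.000575). The enzyme called lower was HK2, whose low counts were in LB EPI and not in Sph EPI. GAPDH was also higher than in EB ICM in LB EPI (2.80 ± 0.60, adjusted p = 0.0187) and in LB HYPO (2.59 ± 0.58, adjusted p = 0.0246), and PGK1, the phosphoglycerate kinase, was higher in EB ICM than in M (1.51 ± 0.30, adjusted p = 0.00755). TPI1 was listed at 0 in every cell, which says nothing about its expression since all cells use it.

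Among 8 glucose and lactate transporters, 3 were tested. In M and EB ICM against epiblast, 1 was called higher in epiblast and 1 lower. Over all genes tested in that comparison, 14.3% were called higher and 1090 of 14721 lower. SLC16A3, a lactate exporter, had 1 count in M and EB ICM together, 191 in LB EPI and 411 in Sph EPI (adjusted p = 0.00159). SLC2A2, the glucose transporter GLUT2, went the other way, with 2973 counts in M, 2431 in EB ICM, 143 in LB EPI and 0 in Sph EPI (adjusted p = 0.00703). Among 24 glycogen enzymes and regulators, 15 were tested, and 1 was called higher (PYGM, adjusted p = 0.00815) and 1 lower (PHKA1, a regulatory subunit of phosphorylase kinase, -5.35 ± 1.63, adjusted p = 0.0204) in epiblast than in M and EB ICM, with a median of -0.05. The median over all genes was 0.18, and the shares of all genes called were those given for the transporters. PYGM had 569 counts in M, 0 in EB ICM, 130 in LB EPI and 7211 in Sph EPI, so its high counts were those of Sph EPI, and the call held in 17 of 19 alternatives. PGM2, a phosphoglucomutase family enzyme, was 2.47 ± 0.43 higher on the log2 scale in EB TE than in EB ICM, fitted as -2.47 for EB ICM minus EB TE (adjusted p = 0.00566).

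Among 17 genes of the HIF pathway core, 11 were tested and 3 were called, all higher in epiblast than in M and EB ICM, where 14.3% of all genes were called higher and 1090 of 14721 lower: HIF1A, EGLN3 and HIF3A, the last with 0 counts in M and EB ICM, 46 in LB EPI and 48 in Sph EPI (adjusted p = 0.0224). The median of the 11 was -0.02. Among 20 genes known as HIF targets, 15 were tested, 4 were called higher in epiblast (EGLN3, LDHA, the collagen cross-linking enzyme LOX and the mitophagy receptor BNIP3L) and 2 lower (HK2 and the histone demethylase KDM3A), with a median of 1.41, beside the same shares of all genes. BNIP3L rose by 1.41 ± 0.36 (adjusted p = 0.00723) and KDM3A fell by 1.57 ± 0.45 (adjusted p = 0.0148). ADM, encoding the peptide adrenomedullin, fell by 3.72 ± 0.87 from M to EB ICM (adjusted p = 0.0264). These lists share LDHA, EGLN3, HK2 and PGK1 with each other or with the members, so their counts are not separate.

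Among 13 genes that set the fate of pyruvate, 11 were tested. In M and EB ICM against epiblast, DLD, a shared subunit of the pyruvate and other dehydrogenase complexes, fell by 1.16 ± 0.19 (adjusted p = 0.000102), PDHA1, the catalytic subunit of pyruvate dehydrogenase, fell by 0.73 ± 0.24 (adjusted p = 0.0289), and MPC2, a subunit of the mitochondrial pyruvate carrier, rose by 1 ± 0.17 (adjusted p = 0.000124). The median of the 11 was 0.11, beside 0.18 over all genes. Thus 1 was called higher and 2 lower, beside 14.3% of all genes tested called higher and 1090 of 14721 lower. DLD and MPC2 were higher in EB ICM than in M (0.87 ± 0.23 and 1.02 ± 0.23, adjusted p = 0.0469 and 0.0183). DLD was lower than in EB ICM in LB EPI (-1.70 ± 0.22, adjusted p = 0.000479) and in LB HYPO (-1.75 ± 0.23, adjusted p = 0.000281). Of 6 gluconeogenesis genes, 3 were tested and none was called in that comparison by edgeR.

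Spherical embryo C stood apart for LDHA, EGLN1 and other genes in both of its lineages, a comparison chosen after the values had been seen and given without a test. Its 14 epiblast cells had 1038 to 4831 TPM of LDHA with a median of 2854 TPM, against medians of 382, 543 and 521 TPM in embryos D, E and F, and a highest value of 1062 TPM in those 3 embryos. Its 2 hypoblast cells had 3029 and 4744 TPM of LDHA, against at most 675 TPM in embryo E and 1024 TPM in embryo F. EGLN1 had a median of 16.9 TPM in the 14 epiblast cells of embryo C and was over 1 TPM in 12 of them, whereas the medians of D, E and F were 0, with 4 of 11, 1 of 4 and 6 of 19 cells over 1 TPM. On the level of embryo sums, epiblast EGLN1 did not set embryo C apart from embryo E, at 5.54 and 5.31, with 2.95 in D and 3.27 in F. PKM was slightly higher in embryo C, with an epiblast median of 2017 TPM beside 1598, 1786 and 1526 TPM in D, E and F. The epiblast median of HIF1A was 391 TPM in embryo C beside 342, 328 and 209 TPM, the epiblast cells of the 4 embryos overlapped, and the mean log2(TPM + 1) of embryo C was below that of the highest other embryo in both lineages (a difference of -0.19 in epiblast and -0.23 in hypoblast).

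Genes were then ranked by how far the mean log2(TPM + 1) of embryo C exceeded the highest other spherical embryo in both lineages, taking the smaller of the excesses. ANKRD37, a gene known as a HIF target, ranked 1 of 14721 with an excess of 3.54, LDHA ranked 2 with 2.23, and EGLN1, itself known to respond to HIF, ranked 5 with 2.07. Embryo C was above all the others in both lineages for 4% of all genes tested (589 of 14721) and for 3 of the 8 members (EGLN1, PKM and LDHA). The same held for 9 of 17 glycolysis enzymes (GPI, ALDOC, PGK1, PGAM1, ENO1, ENO2, ENO3, PKM and LDHA) and 5 of 15 HIF targets (BNIP3L, ANKRD37, KDM3A, PGK1 and LDHA). It held for 1 of 11 HIF pathway core genes (EGLN1), 0 of 15 glycogen enzymes and 0 of 11 pyruvate fate genes. LDHA counts among the members, the glycolysis enzymes and the HIF targets. Some of the smaller excesses were slight, at 0.16 for BNIP3L, 0.17 for ENO3 and 0.18 for PKM. The cells of embryo C came from 7 library pools in epiblast and 1 in hypoblast, with median depths of 2044870 and 1924460 counts, beside 1539620 to 2542810 in the cells of the other spherical embryos. What set this embryo apart was not tested.

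**Figure D5:**
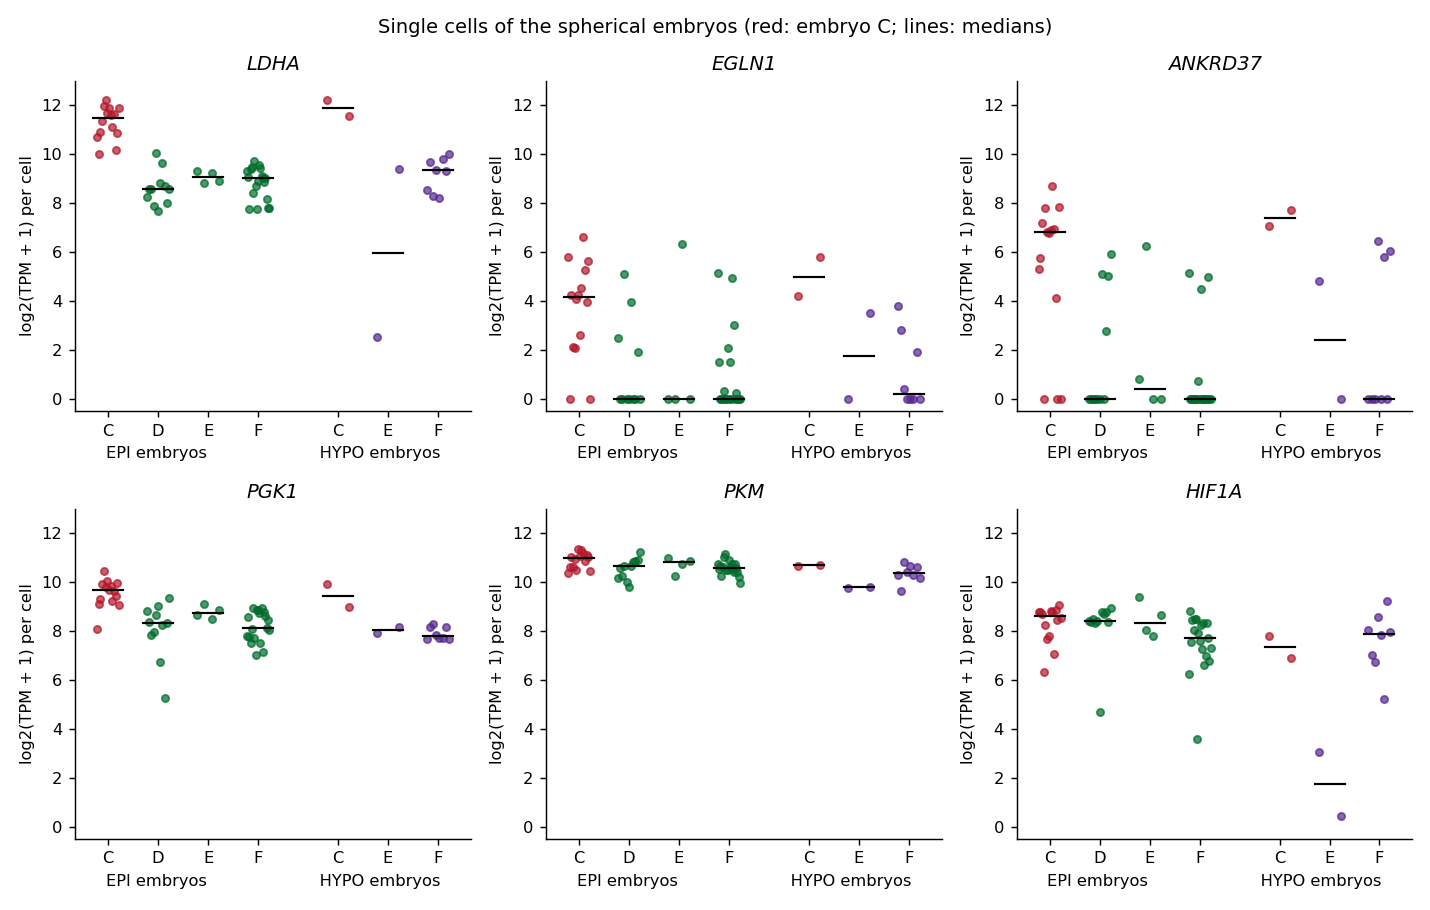
Log2(TPM + 1) per cell (y axis) for 6 genes in the spherical embryos (x axis: embryos C, D, E and F in epiblast, and C, E and F in hypoblast); each point is a cell, red points are embryo C and lines are medians. LDHA, EGLN1, ANKRD37 and PGK1 have higher medians in embryo C in both lineages, while the HIF1A values of embryo C overlap those of the other embryos.

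Over the 41 embryo sums, the levels of the 8 genes went together for some pairs and not for others. As descriptions across sums that share embryos, Pearson's r was 0.70 for HK1 and PKM, 0.57 for HIF1A and PKM, 0.49 for HIF1A and HK1 and 0.46 for PKM and LDHA. It was -0.20 for HIF1A and EGLN1, 0.18 for GBE1 and PYGL, and between -0.11 and 0.30 for EGLN1 with every gene other than HIF1A. Among 9400 tested genes with a symbol, the closest in level to PKM were UPK1B, SLC1A5 and CLU (r of 0.86, 0.84 and 0.84). Among the closest to HK1 were ACSF2 and SAMHD1 (0.79 and 0.71), and the closest to LDHA were PCLAF, EIF4EBP1 and HADH (0.77, 0.77 and 0.76). For HIF1A they were ESYT1, UFC1 and TNFRSF12A (0.70, 0.70 and 0.68), for PFKL MTA2, CCNC and PSMD1 (0.69, 0.66 and 0.62), and for EGLN1 COQ2, GPKOW and TPX2 (0.70, 0.65 and 0.64). For GBE1 they were CDIN1, HIBCH and BBX (0.77, 0.73 and 0.71), and for PYGL PTAR1, PDS5B and KIZ (0.72, 0.68 and 0.66).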

How the data were processed

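The authors deposited, for single cells sequenced by Smart-seq2, raw counts per gene and TPM per gene (scaled by gene length and depth). The submitters' processing notes name HISAT2 2.1.0 and HTSeq, so the deposited counts are reads assigned to genes, without molecular identifiers, and intervals on shares of cells cover counting error alone. Counts were summed per embryo and lineage, which used 219 of 220 cells. Embryos were assigned by the letters in cell identifiers, and 2 cells, one labelled EB TE and one from a late blastocyst, were less certain. Library pools were inferred from the prefix of the sample titles. Where nothing else is known, p-values measure the spread between these embryos.

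The genes tested exceeded 1 TPM in at least 3 cells, and the test was made with edgeR 4.0.16 (TMM, quasi-likelihood test) in R 4.3.3, each comparison on its own groups. Alternatives were DESeq2 1.42.0, limma 3.58.1 on log2(TPM + 1) and log2(TPM + 0.1), no TMM, no filter, sums of at least 2 cells, all 7 groups in one model, the first and last 4 of 8 library pools, an embryo block, and leaving out each embryo of the late blastocyst and spherical groups. Isozyme shares and figures used Python 3.11.15, pandas 2.3.3, scipy 1.17.1 and matplotlib 3.10.9. The edgeR fit was also run on simulated sums for EB ICM against LB EPI and for LB EPI against Sph EPI, with the outcome not given here. Large changes were placed in well-counted genes alone, so low counts and the other comparisons were not covered.

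Lineages of one embryo come from one animal and are paired. The correlation of their deviations over 5576 genes exceeded 0.1 in 1 of 7 pairs of EB ICM and EB TE, 0 of 3 LB pairs and 1 of 3 Sph pairs.

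The 8 genes and the gene lists were chosen with earlier results of these data known. The text names the 8 genes, up to 6 called genes per list and comparison, the isozyme partners and the 3 genes closest to each of the 8 by Pearson correlation, of which 1 is not reported here. Of the gene identifiers, 11437 had a symbol, so genes missing from lists were not analysed here.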

Additional observations from a re-analysis of the deposited data

Results flagged for a closer look

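In 48 sets of embryo levels (one of the 8 genes in one group of 4 to 10 embryos), the highest or lowest embryo was tested for a gap to its nearest neighbour that is large for the range, and 5 were found. Chance gives about 1 in 20 such sets. HIF1A in morula embryo Y, a sum of 3 cells, had a log2(CPM + 1) level of 1.09 against 4.61 in the nearest morula. HK1 in the inner cell mass of embryo AD, a single cell, had a level of 0 against 4.41 in the nearest. LDHA in morula embryo V, a sum of 2 cells, had a level of 0 against 5.70 in the nearest. LDHA in the epiblast of spherical embryo C, a sum of 14 cells, had a level of 11.73 against 9.21 in the nearest. GBE1 in the epiblast of spherical embryo E, a sum of 4 cells, had a level of 3.48 against 6.13 in the nearest.

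The 1 morula cell without an embryo entered no comparison, and 5 of the 8 genes were counted in it. Its values were 319 TPM for PKM, 135 TPM for LDHA, 47.4 TPM for EGLN1, 31.4 TPM for PFKL and 11.3 TPM for PYGL, at a depth of 2488103 counts. PKM was higher in 2 of the other 46 morula cells and PFKL in 6 of 46. HIF1A, HK1 and GBE1 had 0 counts in it.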

How the results depend on the processing

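The direction of a called gene among the 8 changed in 0 of 1392 values computed under alternatives, and 115 values of genes that were not called changed sign, 108 of them by less than their own SE. The number of the 8 genes called moved as follows. For M against EB ICM it was 3 with DESeq2 (HK1 and PKM added) and 0 within the first or last 4 library pools. For EB ICM against LB EPI it was 2 with DESeq2, with limma at either pseudocount and with sums of at least 2 cells (PFKL added, lower in LB EPI). For EB ICM against LB HYPO it was 0 within the last 4 pools. For LB EPI against Sph EPI it was 2 with DESeq2 (PKM added, adjusted p = 0.000234), 0 in one model of all groups and within either 4 pools, and 0 to 1 when an embryo was left out. For LB EPI against LB HYPO and for the change of the lineage difference with stage it was 1 (PFKL) with DESeq2 and limma. For Sph EPI against Sph HYPO it was 1 (PYGL) with limma, and 0 to 1 when an embryo was left out. For M and EB ICM against epiblast it was 3 to 5. With embryos of at least 2 cells, or with the lineages of an embryo paired as a replicate block, 0 isozyme shares passed (EGLN1 in EB ICM against EB TE, adjusted p = 0.0960 and 0.177). LDHA reversed in EB ICM against LB EPI with limma at pseudocount 0.1 (-0.10), in LB EPI against Sph EPI without embryo C (-0.47, the lowest of a range to 1.08 when an embryo was left out), and in LB HYPO against Sph HYPO with limma (-0.41 and -0.43), within the last 4 pools (-0.62) and without embryo C (-0.60, the lowest of a range to 1.44 when an embryo was left out). The embryo as a replicate block changed no call among the 8 genes and gave 20 calls over all genes in LB EPI against LB HYPO (283 without it), 82 in Sph EPI against Sph HYPO (167) and 13 for the change with stage (6). Counts over all genes ranged from 38 to 1205 for M against EB ICM (361 as reported), 9 to 865 for EB ICM against EB TE (111), 123 to 1381 for EB ICM against LB EPI (428), 71 to 1108 for EB ICM against LB HYPO (309), 7 to 843 for LB EPI against Sph EPI (23), 17 to 336 for LB HYPO against Sph HYPO (24), 20 to 1360 for LB EPI against LB HYPO (283), 73 to 1453 for Sph EPI against Sph HYPO (167), 1979 to 3484 for M and EB ICM against epiblast (3202) and 0 to 540 for the change with stage (6). The cause of these moves was not tested. Leaving out embryo C in both lineages, leaving out the E6-ER cell and pairing the shares were chosen after the data had been seen. Groups of 3 to 5 embryos and sums of 1 cell limit what a missing call shows.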

Other observations

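In the E6-ER cell, labelled EB TE, LDHA stood at 1573 TPM, EGLN1 at 286 TPM, PYGL at 235 TPM and HK1 at 96.9 TPM, each above the highest of the other 27 trophectoderm cells (1480, 170, 67.6 and 83.2 TPM). HIF1A and GBE1 had 0 counts in it. Without this cell the mean trophectoderm level was 3.05 ± 2.09 (SD, n = 9) for PYGL and 3.44 ± 2.72 for EGLN1 on the log2(CPM + 1) scale.

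Among the other lists, DNAJB1, a heat shock co-chaperone on the dissociation and stress list, was 4.36 ± 0.43 higher on the log2 scale in LB EPI (edgeR adjusted p = 4.22e-05) and 5.29 ± 0.29 higher in LB HYPO (adjusted p = 2.86e-08) than in EB ICM. Its part in the differences of the 8 genes was not tested.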
